A study of Homo sapiens with 30 samples.

Results

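The 8 genes followed here are the androgen-regulated protease gene TMPRSS2, the ETS transcription factor genes ERG, ETV1, ETV4, ETV5 and FLI1, and SLC45A3 and NDRG1, which like TMPRSS2 are known as 5' partners of ETS gene fusions in prostate cancer. They were chosen by symbol, and all 8 were found among the 57773 genes in each of the 4 count tables. In the annotation of the deposited tables they were ENSG00000184012 (TMPRSS2, chromosome 21), ENSG00000157554 (ERG, chromosome 21), ENSG00000006468 (ETV1, chromosome 7), ENSG00000175832 (ETV4, chromosome 17), ENSG00000244405 (ETV5, chromosome 3), ENSG00000151702 (FLI1, chromosome 11), ENSG00000158715 (SLC45A3, chromosome 1) and ENSG00000104419 (NDRG1, chromosome 8).

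TMPRSS2 encodes a membrane-anchored serine protease of luminal prostate cells that is switched on by androgen. In many prostate cancers a rearrangement joins its androgen-driven promoter to the coding part of ERG, so that an ETS factor that luminal cells hardly make is produced under androgen control. ETV1, ETV4 and ETV5 form the PEA3 subfamily of ETS factors and, like FLI1, are rarer fusion partners. SLC45A3 encodes prostein, a prostate-restricted membrane transporter, and NDRG1 encodes a cytoplasmic protein induced by stress, differentiation and androgen. VCaP, a line from a vertebral metastasis, carries TMPRSS2-ERG. LNCaP, from a lymph node metastasis, is known for a rearranged, highly expressed ETV1, and C4-2 is a castration-resistant subline of LNCaP.

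RNA was sequenced from these 3 lines in 22 libraries of 14 groups, under the question of what the loss of RB1 and inhibition of the histone demethylase LSD1 do to gene expression. VCaP cells received 20 nM siRNA against RB1 (siRB) or a non-targeting siRNA (siNTC) for 2 days, with 3 libraries each. C4-2-tet-shRB cells carry a hairpin against RB1 that doxycycline induces. In the first C4-2 experiment they had 0.05 µg/ml doxycycline for 3 days with 10 µM of the LSD1 inhibitor GSK2879552 for 24 h, the inhibitor alone, doxycycline with DMSO, or DMSO alone, with 2 libraries each in medium with 5% charcoal-stripped serum. In the second they had 10 nM dihydrotestosterone (DHT, 24 h) or vehicle after 0, 3 or 30 days of 0.05 µg/ml doxycycline, with 1 library each in medium with 8% charcoal-stripped and 2% fetal bovine serum. LNCaP cells had 1 µM GSK2879552 for 2 days or vehicle in 5% charcoal-stripped serum, with 1 library each. All C4-2 groups carry the hairpin construct, and none is a doxycycline-treated culture with a control hairpin, so that RB1 loss and exposure to doxycycline cannot be told apart there. The labels give the VCaP medium as 10% fetal bovine serum while the library names refer to stripped serum, and this was not settled.

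Libraries held 4311455 to 7107036 counted reads in VCaP, 14515932 to 22326960 in the first C4-2 experiment, 14898454 to 16856486 in the second and 13085157 to 14036346 in LNCaP. RB1 averaged 6.47 CPM (read counts scaled to a common library size with edgeR's TMM factors) in siRB and 59.8 CPM in siNTC libraries, and 5.44 CPM with doxycycline and DMSO against 24.7 CPM with DMSO alone. In the DHT experiment it was 6.25 to 10.0 CPM in the 4 doxycycline libraries and 48.1 and 51.1 CPM in the other two. The 7 luminal prostate markers summed to between 1669 CPM in LNCaP and 11040 CPM in C4-2 cells, and none of them was at 0 in any of the tables. Of 4 endothelial, 5 blood and 5 stromal markers, the sums stayed at or under 23.2, 1.56 and 50.8 CPM. CDH5, an endothelial cadherin, was at 0 in 3 of the 4 tables, and HBB, a haemoglobin gene, was at 0 in all of them.

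RefSeq promoter windows (GRCh38.p14, 300 bases around a transcript start, most of them before it) matched 3 of the 8 genes, with 1 window for SLC45A3, 4 for ERG and 6 for ETV1. A pair of these is shown because SLC45A3 and ERG both rose after RB1 siRNA in VCaP cells and SLC45A3 had the largest DHT response of the members tested. TMPRSS2, whose promoter drives ERG in the fusion that VCaP carries, had no window. The ERG window shown is thus not known to drive the ERG RNA that rose, and the start used in VCaP was not tested. Capitals mark the GGAA core that ETS factors bind, or TTCC where it lies on the other strand. The sequences read 5' to 3' along the gene, and both lie on the minus strand.
SLC45A3, chr1:205680460-205680759: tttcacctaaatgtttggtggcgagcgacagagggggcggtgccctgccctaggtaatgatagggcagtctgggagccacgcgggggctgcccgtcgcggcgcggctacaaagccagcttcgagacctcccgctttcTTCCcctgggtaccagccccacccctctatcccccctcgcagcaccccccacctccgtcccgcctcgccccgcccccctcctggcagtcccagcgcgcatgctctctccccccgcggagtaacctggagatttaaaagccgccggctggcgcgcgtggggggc
ERG, chr21:38660618-38660917: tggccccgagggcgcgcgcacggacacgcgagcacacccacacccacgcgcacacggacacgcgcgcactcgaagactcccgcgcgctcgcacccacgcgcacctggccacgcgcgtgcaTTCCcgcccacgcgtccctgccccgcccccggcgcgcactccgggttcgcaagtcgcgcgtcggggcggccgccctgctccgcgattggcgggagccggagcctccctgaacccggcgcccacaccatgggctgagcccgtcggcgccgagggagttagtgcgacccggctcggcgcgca
Each window held a single GGAA core, which 95.5% of the 35116 windows of the table hold at least once, with a median of 3. The longer form CCGGAA, found in 17.2% of windows, was in neither. The steroid hormone response half-site AGAACA, found in 14.8% of windows on either strand, was in neither window, though in 2 overlapping ETV1 windows. The full palindromic form of that element, in its strict form on either strand, was in 0.00285% of all windows and in no window of these genes. The E2F-type motif GGCGGGAA, which 3.16% of windows hold, occurred in this ERG window on the reverse strand, where it overlaps the marked TTCC, and in no other window of the 3 genes. The other 3 ERG windows held 6, 2 and 2 GGAA cores, and the 6 ETV1 windows held 3 to 6. These are matches of letters in short windows and say nothing of binding.

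Across the lines, 3 of the 8 genes were expressed everywhere and the ETS genes were each high in at most 1 line. ERG, an ETS factor normally found in endothelial and blood cells, had 316 to 327 CPM in the 3 siRB libraries and 273 to 284 CPM in the 3 siNTC libraries of VCaP. In C4-2 cells ERG had 10 counts over the 8 libraries of the first experiment and 9 over the 6 of the second, and in LNCaP it had 2 counts over both libraries. VCaP was thus the line with ERG RNA, and the highest value in any other library was 0.218 CPM, in C4-2 cells with DHT and no doxycycline. Of the endothelial and blood markers CDH5, KDR, PTPRC, CD3E and HBB were at 0 in VCaP. VWF had 19 counts in siRB and 10 in siNTC libraries, TEK 3 in siRB and 0 in siNTC, and CD68 1 in each group, so that the endothelial sum was 0.468 to 1.54 CPM and the blood sum at most 0.228 CPM. The tables count reads per gene, so ERG reads of the fusion transcript and of an unrearranged allele cannot be told apart, and neither can those of TMPRSS2.

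ETV1, a PEA3 factor, had 1856 counts (141 CPM, exact 95% counting interval 134 to 147) in LNCaP with GSK2879552 and 1742 counts (125 CPM, 119 to 131) in LNCaP with vehicle. C4-2, although derived from LNCaP, had 3 ETV1 counts over its 14 libraries, 1 in the first experiment and 2 in the second. VCaP had 1 and 2 counts of ETV1 in 2 of the 3 siRB libraries and 0 in the other siRB and all siNTC libraries. Media differ between the LNCaP and C4-2 DHT tables, which share a total RNA kit, and the kit differs in the first C4-2 experiment; the part of kit and medium was not tested.

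ETV4 and ETV5 stayed near 1 CPM or below in most libraries. ETV4 ranged between 0.0580 CPM in the C4-2 library with 30 days of doxycycline and vehicle and 1.82 CPM in a VCaP siRB library. ETV5 was highest with GSK2879552, at 2.50 CPM in a C4-2 library and 2.20 CPM in the LNCaP library, and was at 0 in all 3 VCaP siRB libraries and in C4-2 cells with 30 days of doxycycline and DHT. FLI1, the closest relative of ERG, had 3 counts in the first C4-2 experiment, 1 in LNCaP and 0 in VCaP and the second C4-2 experiment, where 0 counts allow a level of up to 0.0908 and 0.0321 CPM over the pooled libraries (3 counts of the total, counting error only).

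TMPRSS2 was highest in C4-2 cells given DHT, at 1788 to 2268 CPM. Next came the first C4-2 experiment, with means of 932 CPM with doxycycline and GSK2879552, 1302 CPM with GSK2879552, 867 CPM with doxycycline and DMSO, and 1198 CPM with DMSO. The C4-2 vehicle libraries of the DHT experiment had 396 to 472 CPM. LNCaP had 98.5 CPM with GSK2879552 and 135 CPM with vehicle, and VCaP 126 ± 2.31 CPM with siRB and 120 ± 3.67 CPM with siNTC (SD, n = 3 each). The VCaP groups overlap each other and lie between the LNCaP libraries. Between tables the kit, the medium and the scaling differ, so this order is a description.

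SLC45A3 was likewise highest in C4-2 cells with DHT (1386 to 1855 CPM). VCaP followed with 629 ± 17.1 CPM in siRB and 551 ± 7.61 CPM in siNTC libraries (SD, n = 3 each), then C4-2 with vehicle at 196 to 245 CPM and the first C4-2 experiment at 91.0 to 138 CPM. LNCaP was lowest, with 43.6 CPM with GSK2879552 and 64.7 CPM with vehicle. Per kilobase of exon, the order of TMPRSS2 and SLC45A3 differed between groups. In VCaP every library had more SLC45A3 than TMPRSS2 (means of 159 and 20.1 CPM per kilobase), and so had C4-2 cells with DHT (374 to 501 CPM per kilobase of SLC45A3 and 292 to 371 of TMPRSS2). In C4-2 cells with vehicle SLC45A3 was the lower one (52.9 to 66.2 against 64.7 to 77.2 CPM per kilobase of TMPRSS2), as it was in the first C4-2 experiment (means of 30.8 and 176) and in both LNCaP libraries (11.8 and 17.5 against 16.1 and 22.1).

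NDRG1 was abundant in VCaP (1344 ± 11.5 CPM in siRB and 1172 ± 12.1 CPM in siNTC libraries, SD, n = 3 each) and in the first C4-2 experiment (959 to 1263 CPM). In the DHT experiment it had 852 to 1063 CPM with DHT and 197 to 237 CPM with vehicle. LNCaP had 59.8 CPM with GSK2879552 and 87.1 CPM with vehicle. C4-2 cells without added androgen thus held 197 to 237 CPM of NDRG1 in one experiment and 959 CPM or more in the other, which used a different library kit and serum. What part kit and serum have in this was not tested.

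**Figure D1:**
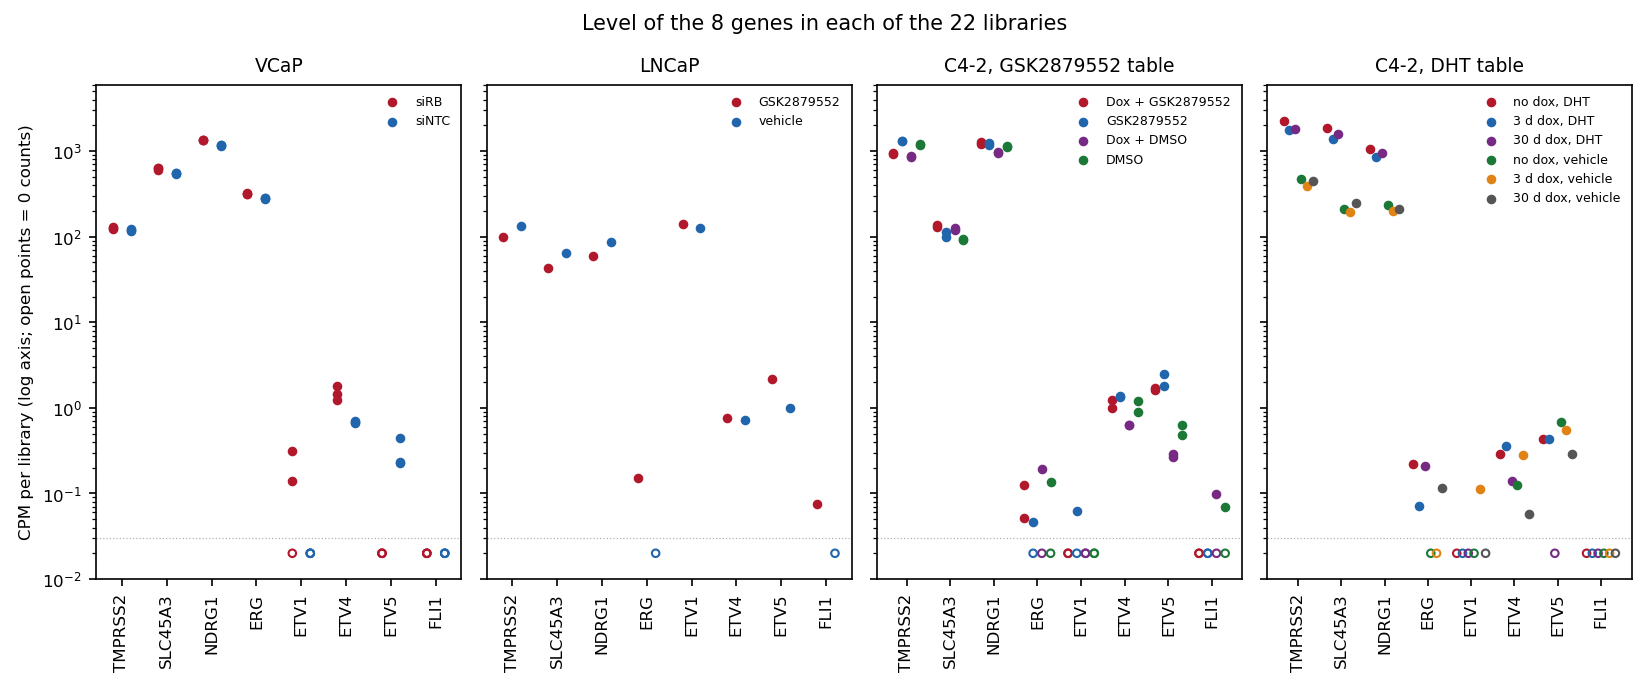
CPM of the 8 genes in each library on a log axis, with 1 panel per count table and 1 colour per group; open points under the dotted line are libraries with 0 counts. ERG is high in VCaP (273 to 327 CPM) and ETV1 in LNCaP (125 and 141 CPM), while ETV4, ETV5 and FLI1 stay at or under 2.50 CPM in all panels.

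Among the 28 genes of the ETS family, ERG and ETV1 were not the most abundant members even where they were high. Per kilobase of exon, SPDEF, the prostate-derived ETS factor of luminal cells, led in VCaP with a mean level of 287 CPM per kilobase, ahead of EHF, an epithelial ETS factor (63.5), and ERG (39.5). In LNCaP the order of mean levels per kilobase was EHF (47.9 CPM), SPDEF (40.1 CPM), ELK1, a serum response cofactor (15.3 CPM), and ETV1 (13.8 CPM). In C4-2 the same pair led, at 125 CPM per kilobase for EHF and 99.8 for SPDEF in the first experiment, and 188 and 201 in the second. ELK4, ELF1, ELF2, ELF3, ETV3, ETV6, ERF and GABPA were present in all 4 tables, with mean levels of 8.43 to 301 CPM. ELF5, another epithelial ETS factor, averaged 42.6 and 45.7 CPM in the C4-2 tables against 0.876 CPM in LNCaP and 8.17 CPM in VCaP. ETV3L had no count in any library.

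Depletion of RB1 in VCaP asked how the fusion gene and its relatives respond in cells that carry TMPRSS2-ERG. ERG, SLC45A3 and NDRG1 rose by small amounts of like size, and TMPRSS2 did not pass the test. ERG had 317, 327 and 316 CPM in the siRB libraries and 273, 284 and 284 CPM in the siNTC libraries, a log2 fold change of 0.19 ± 0.04 (SE, adjusted p = 0.000143 with edgeR's quasi-likelihood test and Benjamini-Hochberg adjustment over all genes, n = 3 each). All siRB libraries lay above all siNTC libraries. SLC45A3 had 636, 641 and 609 CPM with siRB and 559, 548 and 545 CPM with siNTC, a log2 fold change of 0.19 ± 0.03 (adjusted p = 5.40e-06 in edgeR). NDRG1 had 1353, 1331 and 1348 CPM with siRB and 1183, 1159 and 1174 CPM with siNTC, a log2 fold change of 0.20 ± 0.03 (adjusted p = 1.09e-07 in edgeR). Neither gene's groups overlapped. TMPRSS2 had 124, 128 and 126 CPM with siRB and 124, 116 and 121 CPM with siNTC; these groups overlap, with a log2 fold change of 0.06 ± 0.05 and a 95% interval of -0.04 to 0.16 (adjusted p = 0.554 in edgeR).

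These were 3 of the 4 members tested in VCaP, where 5.62% of 14066 genes were called, 2.96% higher and 2.65% lower. The siRB libraries were also the deeper ones, with 6218938 to 7107036 reads against 4311455 to 4551211 in siNTC libraries, and the part of depth in these small changes was not tested; leaving out any 1 of the 6 libraries kept all 3 calls. Replicates differed by little more than counting error (chi-square ratio 1.13 to 1.39), and no label says that they were separate cultures, so these p-values measure the spread between these libraries only. ERG counts per TMPRSS2 count were 2.57, 2.55 and 2.50 with siRB and 2.21, 2.44 and 2.35 with siNTC. The siRB ratios were all higher (means 2.54 ± 0.03 and 2.33 ± 0.12, SD, n = 3 each), and an exact two-sided permutation test gave p = 0.1, the smallest that 3 against 3 libraries allow. ETV4 was too low for the fit, with 13, 8 and 9 counts in siRB and 3 in each siNTC library. In CPM this was 1.25 to 1.82 with siRB and 0.660 to 0.694 with siNTC. ETV5 had 0 counts in each siRB library and 1, 1 and 2 in the siNTC libraries.

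**Figure D2:**
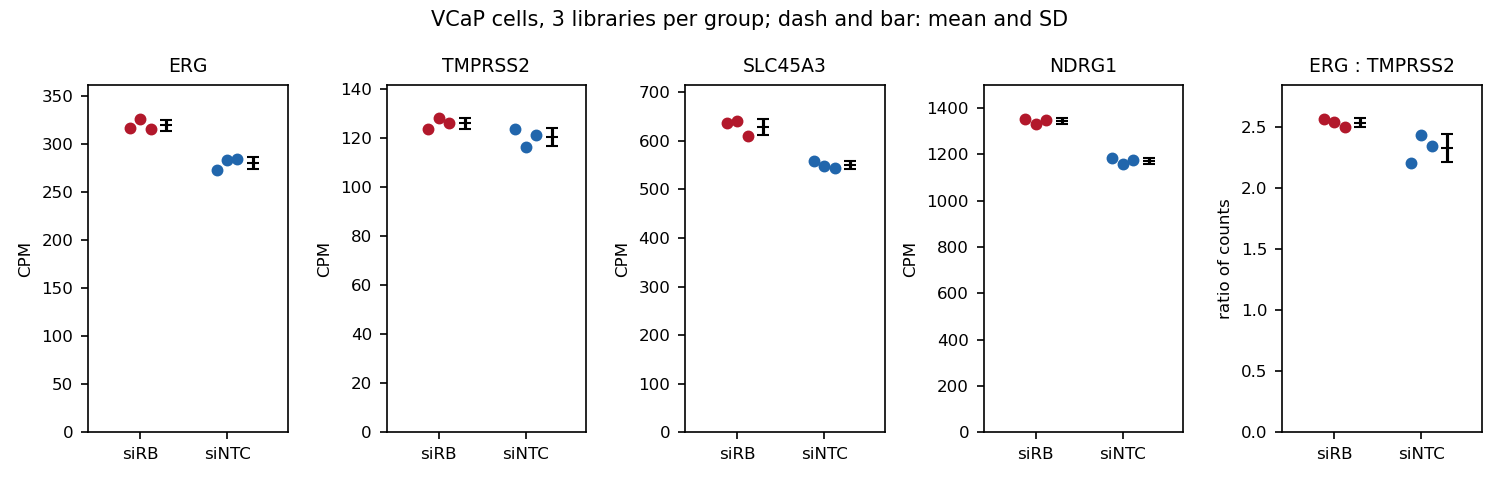
CPM of ERG, TMPRSS2, SLC45A3 and NDRG1 and the ratio of ERG to TMPRSS2 counts in VCaP cells with siRB (left) and siNTC (right); points are libraries, the dash and bar beside them the mean and SD. The siRB points lie above the siNTC points for ERG, SLC45A3, NDRG1 and the ratio, and overlap them for TMPRSS2.

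Of the 19 ETS family genes tested in VCaP, ERG rose and FEV, a relative of ERG known from serotonin neurons, fell (log2 fold change -0.69 ± 0.21, adjusted p = 0.0313 in edgeR), with a family median of 0.06 against -0.001 for all genes. Among 16 tested genes in or beside the interval that the TMPRSS2-ERG deletion spans, MX1, an interferon-induced antiviral GTPase, and ERG rose (MX1 by 0.40 ± 0.03) and B3GALT5, a glycosyltransferase, fell by 0.48 ± 0.09. Of 10 genes known to go with ERG in prostate tumours or VCaP cells, 3 rose, led by PLA1A, a phospholipase (0.26 ± 0.06), and HLA-DMB, an antigen-loading chaperone (0.39 ± 0.09); LEF1, a Wnt pathway factor, fell by 0.26 ± 0.05, and the median of the 10 was 0.10. Of 10 fusion partner genes HERPUD1, an endoplasmic reticulum stress gene, rose (0.18 ± 0.05) beside SLC45A3 and NDRG1, and 0 fell (median 0.05). Of 7 androgen-regulated reference genes 4 rose and 1 fell, with a list median of 0.19. The rises were led by KLK3, the prostate-specific antigen (0.38 ± 0.04), and PMEPA1, an inhibitor of TGF-beta signalling (0.19 ± 0.03). SLC45A3 and NDRG1 were the members of their own families that rose, of 3 and 4 tested, and NDRG3 fell by 0.21 ± 0.04. CCND1, a cell cycle cyclin, was the 1 called gene of 5 tested ERK output genes and fell by 0.16 ± 0.03. Of 5 tested type II serine proteases and 8 genes of ETS protein turnover, edgeR and DESeq2 called 0 (2 and 0 at an unadjusted p under 0.05 in edgeR, medians 0.06 and -0.01).

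DHT in C4-2-tet-shRB cells asked how RNA of the fusion partner genes answers androgen with and without doxycycline, which induces the RB1 hairpin. TMPRSS2, SLC45A3 and NDRG1 were all several-fold higher with DHT at each doxycycline level. TMPRSS2 had 2268, 1788 and 1789 CPM with DHT at 0, 3 and 30 days of doxycycline, against 472, 396 and 451 CPM with vehicle. Averaged over the levels the log2 fold change was 2.14 ± 0.06 (adjusted p = 3.40e-21 in edgeR, higher in 3 of 3 pairs). SLC45A3 had 1855, 1386 and 1590 CPM with DHT and 211, 196 and 245 CPM with vehicle, a log2 fold change of 2.88 ± 0.07 (adjusted p = 1.04e-22 in edgeR, higher in 3 of 3 pairs). NDRG1 had 1063, 852 and 940 CPM with DHT and 237, 197 and 210 CPM with vehicle, a log2 fold change of 2.15 ± 0.05 (adjusted p = 5.19e-22 in edgeR, higher in 3 of 3 pairs). All DHT libraries lay far above all vehicle libraries for each of the 3 genes. ETV5 had 6, 6 and 0 counts with DHT and 11, 10 and 5 with vehicle, and did not pass the test (log2 fold change -0.84 ± 0.58, adjusted p = 0.247 in edgeR).

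Against these 3 of 4 members tested, edgeR called 47.1% of 17300 genes in this comparison (24.3% higher, 22.8% lower), so a call here is common. On library size alone, without TMM factors, the median of all genes moved by -0.20 and the split became 2480 higher and 6847 lower in place of 4206 and 3943; TMM factors were 0.921 to 0.956 in the DHT and 1.06 to 1.07 in the vehicle libraries. The log2 fold changes of TMPRSS2 and NDRG1 were then 1.96, and SLC45A3 stayed called as well. The markers VWF and COL1A1 had log2 fold changes of 0.38 ± 0.15 and 0.35 ± 0.11 and were called beside them, though not on library size alone; their part in the result was not tested. The fit is additive, has 1 library per group and leaves 2 residual degrees of freedom.

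With 1 library per group, the response at each doxycycline level is a ratio of a library pair, and its interval covers counting error only. For TMPRSS2 the DHT to vehicle ratio was 4.80 (4.68 to 4.93) without doxycycline, 4.52 (4.40 to 4.64) after 3 days and 3.97 (3.87 to 4.07) after 30 days. For SLC45A3 it was 8.78 (8.48 to 9.11), 7.08 (6.83 to 7.35) and 6.49 (6.28 to 6.70) at 0, 3 and 30 days. For NDRG1 it was 4.49 (4.33 to 4.65), 4.32 (4.16 to 4.48) and 4.48 (4.31 to 4.64). The TMPRSS2 and SLC45A3 ratios were thus lower at each longer exposure, beyond counting error between 0 and 30 days, while the NDRG1 intervals overlap at all 3 levels; the spread between cultures was not measured. All 3 genes were past 2-fold at each level, as were 3.97%, 3.37% and 3.31% of genes with at least 100 counts in the upward direction (3.83%, 1.8% and 1.83% downward, 7.79%, 5.17% and 5.13% in either).

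**Figure D3:**
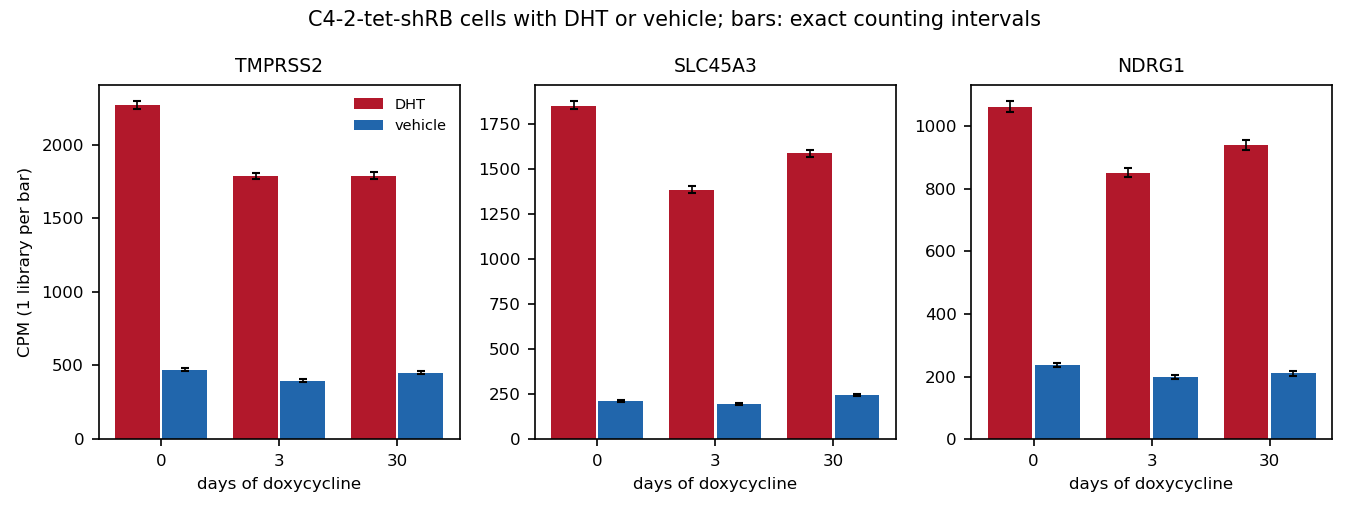
CPM of TMPRSS2, SLC45A3 and NDRG1 in C4-2-tet-shRB cells with DHT (left bar) and vehicle (right bar) after 0, 3 and 30 days of doxycycline, 1 library per bar, with exact 95% counting intervals. The DHT bars stand at 852 to 2268 CPM and the vehicle bars at 196 to 472 CPM.

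The 10 fusion partner genes tested in the same experiment include TMPRSS2, SLC45A3 and NDRG1. Of the 10, 8 rose and HNRNPA2B1, an RNA-binding protein gene, fell by 0.39 ± 0.07 (7 rose and 2 fell on library size alone). The list median, to which TMPRSS2, SLC45A3 and NDRG1 contribute, was 0.98 against -0.02 for all genes. ACSL3, which activates long-chain fatty acids, rose by 2.90 ± 0.06, as much as SLC45A3. All 4 SLC45 family genes rose, including the melanosome transporter gene SLC45A2 (2.01 ± 0.33, 3 of 4 on library size alone), whereas of the 4 NDRG genes only NDRG1 was called, with TMM factors, on library size alone and with DESeq2. Of 8 type II serine proteases TMPRSS2, HPN (hepsin, 0.88 ± 0.06) and 1 more rose, and TMPRSS13 (fell by 0.37 ± 0.11), TMPRSS4 (fell by 0.74 ± 0.24) and 1 more fell, with a median of 0.003. Of 7 androgen-regulated reference genes 6 rose and 1 fell. FKBP5, a steroid receptor co-chaperone, rose by 3.32 ± 0.06. STEAP4, a metalloreductase gene, had 2535, 2583 and 2700 counts with DHT at 0, 3 and 30 days of doxycycline. With vehicle it had 0, 3 and 2 counts at these levels.

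Of 20 ETS family genes tested with DHT, 7 rose and 4 fell (6 and 8 on library size alone, 7 and 0 with DESeq2), with a median of -0.01. Of all 17300 genes 24.3% rose and 22.8% fell, so calls in this and the following lists are common. SPDEF rose by 1.46 ± 0.06 and ELK4, an androgen-induced ETS gene that also forms a chimaera with SLC45A3, by 0.68 ± 0.06. ELF5 fell by 0.25 ± 0.07 and ETS2 by 0.43 ± 0.14. Of 8 tested genes known to go with ERG, CRISP3, a secreted cysteine-rich protein gene, rose by 1.12 ± 0.09 and 4 fell, led by the Wnt receptor gene FZD4 (by 0.60 ± 0.07) and KCNS3, a potassium channel subunit gene (by 0.88 ± 0.10), while ERG itself had 3 counts or fewer in each library. Of 12 tested genes in the TMPRSS2 to ERG interval TMPRSS2 was the 1 gene that rose, and 4 fell, led by the proteasome assembly gene PSMG1 (by 0.34 ± 0.07) and the protease gene BACE2 (by 0.47 ± 0.12). Of 7 tested ERK output genes CCND1 rose by 0.41 ± 0.05, and PHLDA1 (by 1.98 ± 0.14) and EPHA2, an ephrin receptor gene (by 0.30 ± 0.10), fell. Of 8 genes of ETS protein turnover DDB1 (0.31 ± 0.05) and the deubiquitinase gene USP9X (0.15 ± 0.05) rose, and TRIM25, a ubiquitin ligase gene, fell by 0.48 ± 0.06; the split was 1 and 3 on library size alone.

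Doxycycline asked what induction of the RB1 hairpin does to the same genes. TMPRSS2 was lower with doxycycline in both C4-2 experiments, while SLC45A3 rose in the first of them, and its 3-day change differed between the experiments. NDRG1 fell in some of the comparisons, with no called difference between them. With DMSO, TMPRSS2 had 864 and 871 CPM with doxycycline and 1174 and 1221 CPM without, a log2 fold change of -0.46 ± 0.05 (adjusted p = 7.93e-05 in edgeR, n = 2 each). With GSK2879552 it had 944 and 920 CPM with doxycycline and 1306 and 1297 CPM without, a log2 fold change of -0.48 ± 0.05 (adjusted p = 5.06e-05 in edgeR). The groups did not overlap in either case, and the call held without any 1 of the 8 libraries. With DHT and vehicle libraries together the 3-day change was -0.30 ± 0.07 (adjusted p = 0.0477 in edgeR) and the 30-day change -0.21 ± 0.07 (adjusted p = 0.104 in edgeR). The 3-day call is close to the threshold: it was lost with RLE factors (adjusted p = 0.0615), on library size alone (0.0753), with DESeq2 (0.0515), and without the library with DHT alone or either 3-day library.

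SLC45A3 went the other way in the first C4-2 experiment. With DMSO it had 128 and 121 CPM with doxycycline and 93.1 and 91.0 CPM without, a log2 fold change of 0.43 ± 0.08 (adjusted p = 0.00249 in edgeR). With GSK2879552 it had 138 and 129 CPM with doxycycline and 99.0 and 114 CPM without, a log2 fold change of 0.33 ± 0.08 (adjusted p = 0.0136 in edgeR). All doxycycline libraries lay above the others, but the first call was lost without DMSO replicate 2 or doxycycline replicate 1, and the second without either library that had both agents or in a fit of these groups alone (adjusted p = 0.0957). Over the DHT and vehicle libraries the 3-day change was -0.28 ± 0.08 (adjusted p = 0.125 in edgeR) and the 30-day change -0.01 ± 0.08 (adjusted p = 0.956 in edgeR). The 3-day effects of the experiments (doxycycline with DMSO minus that in the DHT experiment) differed by 0.72 ± 0.12 for SLC45A3 (adjusted p = 0.000817 in edgeR, n = 14 libraries), which passed without any 1 of the libraries (0.52 to 0.89). It was the 1 called member of 5 tested, beside 1.04% of 19898 genes (0.673% in this direction and 0.367% in the other). The difference was -0.16 ± 0.09 for TMPRSS2 (adjusted p = 0.572) and 0.06 ± 0.09 for NDRG1 (adjusted p = 0.872 in edgeR). Kit and serum differ between the experiments and cannot be told apart. The 3-day change of the DHT experiment also averages vehicle and DHT libraries, while the first experiment had no DHT. With vehicle SLC45A3 had 196 CPM after 3 days of doxycycline and 211 CPM without it. With DHT it had 1386 and 1855 CPM, with 1 library each. The difference for vehicle libraries alone was not tested.

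NDRG1 had 972 and 959 CPM with doxycycline and DMSO and 1162 and 1121 CPM with DMSO alone, a log2 fold change of -0.24 ± 0.06 (adjusted p = 0.0130 in edgeR). With GSK2879552 it had 1263 and 1219 CPM with doxycycline and 1184 and 1254 CPM without, which overlap (log2 fold change 0.03 ± 0.06, 95% interval -0.09 to 0.14, adjusted p = 0.836 in edgeR). In the DHT experiment NDRG1 fell by 0.29 ± 0.06 after 3 days (adjusted p = 0.0373 in edgeR), and the 30-day change was -0.18 ± 0.06 (adjusted p = 0.143 in edgeR). The call with DMSO was lost without DMSO replicate 1 or either doxycycline library, and the 3-day call without either 3-day library and on library size alone (adjusted p = 0.0577). ETV4 and ETV5 did not pass with doxycycline: ETV4 had 13 and 14 counts with doxycycline and DMSO against 13 and 19 with DMSO, and ETV5 had 6 and 6 with doxycycline and DMSO against 7 and 10 with DMSO.

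With DMSO, 3 of 5 tested members were called and 7.84% of 18423 genes were (4.25% higher, 3.59% lower); with GSK2879552 it was 2 of 5 and 7.72% (4.52% higher, 3.2% lower). At 3 days in the DHT experiment 2 of 4 members and 0.468% of 17300 genes were called (0.272% higher, 0.197% lower). At 30 days edgeR called 0 of 4 members and 4.03% of genes (2.51% higher, 1.52% lower); 3 members had an unadjusted p under 0.05 there, and DESeq2 also called 0. The doxycycline libraries with DMSO were deeper (20464130 and 22326960 reads) than those with DMSO alone (14515932 and 15736773 reads), and the part of depth was not tested. With GSK2879552 the depths of the groups overlapped. Replicates of this experiment differed by more than counting error. The chi-square ratio was 1.609 with doxycycline and DMSO, 2.625 with both agents, 3.559 with DMSO and 7.879 with GSK2879552 alone. The fit shares 1 estimate of the spread between these groups.

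**Figure D4:**
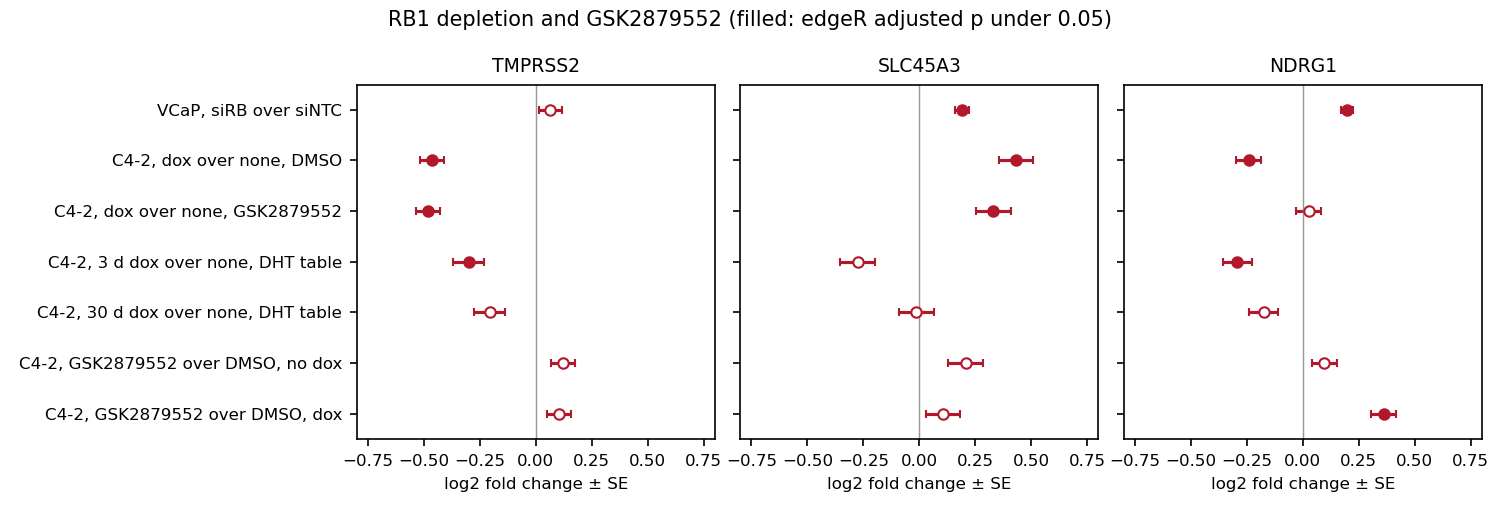
Log2 fold change ± SE of TMPRSS2, SLC45A3 and NDRG1 for RB1 siRNA in VCaP, doxycycline in C4-2-tet-shRB cells and GSK2879552 in the same cells; filled points passed edgeR's adjusted p of 0.05. TMPRSS2 is below 0 in all doxycycline comparisons (-0.48 to -0.21), and SLC45A3 is above 0 in those of the first C4-2 experiment (0.43 and 0.33) and below it at 3 days in the DHT experiment (-0.28).

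Among the 10 fusion partner genes, doxycycline with DMSO went with 2 rises and 3 falls: HERPUD1 rose by 0.50 ± 0.06 beside SLC45A3, and KLK2, a kallikrein protease gene, fell by 0.42 ± 0.06 beside TMPRSS2 and NDRG1 (list median 0.01, all genes -0.002). With GSK2879552 it was 3 rises and 2 falls, and HERPUD1 (0.41 ± 0.06) and KLK2 (log2 fold change -0.25 ± 0.06) were again among them. Androgen-regulated genes were split in the same way. FKBP5 rose by 0.31 ± 0.07 with DMSO and 0.32 ± 0.07 with GSK2879552, while KLK3 fell by 0.29 ± 0.05 with DMSO and 0.23 ± 0.05 with GSK2879552, and 2 of 6 tested genes rose and 2 fell in each case (medians 0.03 and 0.11). HERPUD1 was, like SLC45A3, called in the difference between the experiments (0.59 ± 0.10).

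ELK3, an ETS repressor, was the 1 called gene of 21 tested ETS family genes in each of these 2 comparisons, and fell by 0.86 ± 0.15 with DMSO and 0.64 ± 0.15 with GSK2879552 (medians -0.004 and -0.01). In the DHT experiment 0 of 20 were called at 3 days by edgeR or DESeq2 (0 at an unadjusted p under 0.05), and ELF5 rose by 0.33 ± 0.08 at 30 days. LEF1 rose by 0.80 ± 0.17 with DMSO, 0.57 ± 0.16 with GSK2879552 and 0.81 ± 0.18 at 30 days; of the 8 tested genes known to go with ERG, 2, 1 and 3 rose and none fell in these comparisons, KCNS3 (0.65 ± 0.11 with DMSO) and CRISP3 (0.57 ± 0.11 at 30 days) among them. DUSP4, a MAP kinase phosphatase, rose by 0.35 ± 0.09 with DMSO, 0.41 ± 0.09 with GSK2879552 and 0.50 ± 0.07 at 30 days. CCND1 rose by 0.30 ± 0.06 with GSK2879552 and fell by 0.35 ± 0.06 at 30 days, where PHLDA1 fell by 0.63 ± 0.16. HPN fell by 0.28 ± 0.08 at 30 days, and TMPRSS2 was the 1 called type II serine protease of 9 tested in each of the comparisons with DMSO and GSK2879552. In the TMPRSS2 to ERG interval PSMG1 rose (0.41 ± 0.12) and MX1 fell by 0.68 ± 0.20 with DMSO, and BACE2 rose by 0.40 ± 0.11 with GSK2879552. SPOP, the substrate adaptor of an ERG-directed ubiquitin ligase, fell by 0.28 ± 0.07 with DMSO and was the 1 called gene of 8 in ETS protein turnover. NDRG2 fell by 0.33 ± 0.08 with DMSO. At 30 days PMEPA1 rose by 0.24 ± 0.07 and KLK3 fell by 0.26 ± 0.07. Beside these, the stromal marker COL1A1, the most abundant of its list in C4-2, fell by 0.36 ± 0.11 with doxycycline and DMSO, within summed stromal levels of 35.8 to 50.8 CPM.

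GSK2879552 asked what LSD1 inhibition does to the genes in C4-2 cells with and without doxycycline. ETV5, a PEA3 factor, was the member with the largest change, from a low level. With doxycycline it had 33 and 26 counts (1.69 and 1.62 CPM) with GSK2879552 and 6 and 6 counts (0.293 and 0.267 CPM) with DMSO, a log2 fold change of 2.54 ± 0.40 (adjusted p = 0.00173 in edgeR). Without doxycycline it had 39 and 40 counts (1.79 and 2.50 CPM) with GSK2879552 and 7 and 10 counts (0.482 and 0.635 CPM) with DMSO, a log2 fold change of 1.90 ± 0.36 (adjusted p = 0.0140 in edgeR). All inhibitor libraries lay above all DMSO libraries. Without doxycycline the call was lost when either DMSO library was left out, and DESeq2 gave ETV5 no adjusted p. ETV4, its subfamily relative, had 24 and 16 counts with GSK2879552 and 13 and 14 with DMSO in the presence of doxycycline (log2 fold change 0.83 ± 0.35, adjusted p = 0.393), and 29 and 22 against 13 and 19 in its absence (0.35 ± 0.33, adjusted p = 0.714 in edgeR).

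NDRG1 rose with GSK2879552 in doxycycline-treated cells, to 1263 and 1219 CPM against 972 and 959 CPM with DMSO (log2 fold change 0.36 ± 0.06, adjusted p = 0.00155 in edgeR), a call lost without either of these DMSO libraries or the first of the inhibitor libraries. Without doxycycline it had 1184 and 1254 CPM with GSK2879552 and 1162 and 1121 CPM with DMSO (log2 fold change 0.09 ± 0.06, 95% interval -0.02 to 0.21, adjusted p = 0.521 in edgeR). The difference between these effects was 0.27 ± 0.08 and did not pass (adjusted p = 0.864 in edgeR). TMPRSS2 had log2 fold changes of 0.10 ± 0.05 with and 0.12 ± 0.05 without doxycycline (adjusted p = 0.521 and 0.384), and SLC45A3 of 0.11 ± 0.08 and 0.21 ± 0.08 (adjusted p = 0.679 and 0.293 in edgeR). The 95% intervals of these 4 estimates reach at most 0.37 upwards and -0.05 downwards.

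With doxycycline 2 of 5 tested members and 1.34% of 18423 genes were called (1.24% higher, 0.0923% lower); without it, 1 of 5 and 0.678% (0.619% higher, 0.0597% lower). The test of the difference called 0 members (1 at an unadjusted p under 0.05, 0 with DESeq2) and 0.0163% of genes. Of 21 tested ETS family genes ETV5 was the 1 called in either case (family medians 0.07 with and 0.10 without doxycycline). ETV5 is also counted among the ERK output genes, of which CCND1 rose by 0.28 ± 0.06 with doxycycline (2 of 8 called, median 0.22). Among fusion partner genes NDRG1 was the 1 of 10 called with doxycycline (median 0.09), and without it edgeR and DESeq2 called 0 (2 at an unadjusted p under 0.05, median 0.07). No gene was called by either tool among androgen-regulated reference genes (3 of 6 at an unadjusted p under 0.05 in edgeR with and 3 without doxycycline, medians 0.14 and 0.10) or type II serine proteases (0 with and 3 without of 9, medians 0.04 and 0.15).

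**Figure D5:**
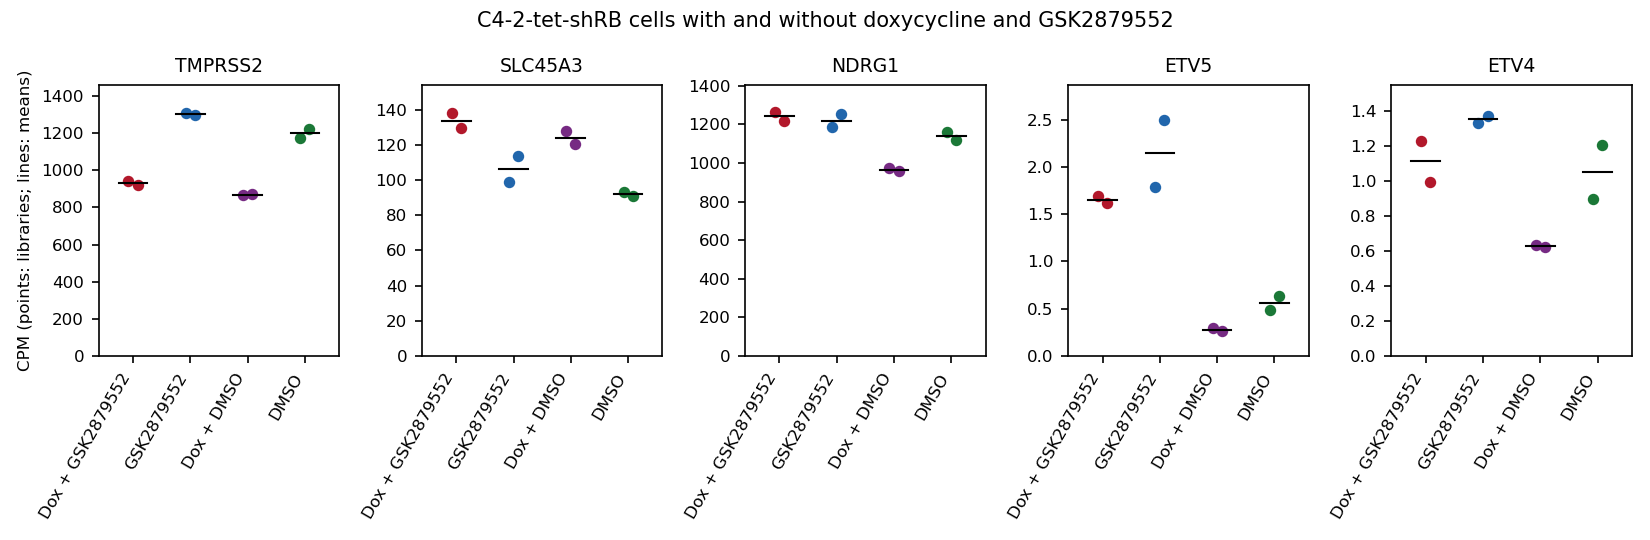
CPM of TMPRSS2, SLC45A3, NDRG1, ETV5 and ETV4 in the 8 libraries of C4-2-tet-shRB cells with doxycycline and GSK2879552, GSK2879552, doxycycline and DMSO, and DMSO; points are libraries and lines are means. ETV5 is at 1.62 to 2.50 CPM in the inhibitor libraries and 0.267 to 0.635 CPM in the DMSO libraries, and TMPRSS2 at 864 to 944 CPM with and 1174 to 1306 CPM without doxycycline.

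In LNCaP cells, at a lower dose and after a longer time, the androgen-regulated members had lower values with GSK2879552. TMPRSS2 had 1301 counts (98.5 CPM) with GSK2879552 and 1880 (135 CPM) with vehicle, a ratio of 0.729 with an exact 95% counting interval of 0.679 to 0.783. SLC45A3 had 576 counts with GSK2879552 and 900 with vehicle, a ratio of 0.674 (0.606 to 0.750). NDRG1 had 789 counts with GSK2879552 and 1212 with vehicle, a ratio of 0.686 (0.626 to 0.751). The 3 ratios have overlapping intervals. ETV1 had a ratio of 1.12 (1.05 to 1.20), and ETV5, with 29 counts with GSK2879552 and 14 with vehicle, a ratio of 2.18 (1.12 to 4.47). ETV4 had 10 counts in each library. With 1 library per group there is no replicate check, and none of the 4 members with at least 100 counts was past 2-fold, beside 2.97% of 11955 genes (1.54% higher, 1.43% lower). The median log2 ratio of all these genes was -0.01. For the 10 fusion partner genes, TMPRSS2, SLC45A3 and NDRG1 among them, it was -0.50, with HNRNPA2B1 past 2-fold lower. For the 4 NDRG genes it was -0.47. For 6 androgen-regulated reference genes it was -0.31, with KLK3 past 2-fold lower, and for 15 ETS family genes 0.05. Beside these values the endothelial marker VWF had 76 counts with GSK2879552 and 320 with vehicle, and made up nearly all of the endothelial sums of 5.76 and 23.2 CPM; CDH5 and KDR were at 0. The stromal marker COL1A1 had 240 counts (18.2 CPM) with GSK2879552 and 489 (35.1 CPM) with vehicle, within stromal sums of 18.3 and 35.5 CPM, and DCN and PDGFRA were at 0. The part of these markers in the result was not tested. In C4-2 the same 3 genes had log2 fold changes of 0.10 to 0.36 with doxycycline and 0.09 to 0.21 without, with 10 µM for 24 h, and of these NDRG1 with doxycycline was the 1 called; dose, time, kit and line differ, and no comparison was made.

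Over the 22 libraries, after the mean of each table was subtracted, log2 CPM of TMPRSS2 was most like that of PACS1, a sorting adaptor gene (Pearson r = 0.98), CTNND1, the gene of p120 catenin (0.98), and ACACA, which encodes an acetyl-CoA carboxylase (0.98), among 11565 genes. SLC45A3 was most like ANKH, a pyrophosphate transporter gene, PMEPA1 and FKBP5 (r = 0.99 each). NDRG1 was most like SAT1, a polyamine acetyltransferase gene (0.99), FAM105A (0.99) and TSC22D1, a leucine zipper factor gene (0.98). Between members r was 0.97 for NDRG1 with TMPRSS2, 0.97 for NDRG1 with SLC45A3 and 0.92 for TMPRSS2 with SLC45A3. These values rest largely on the DHT and vehicle libraries, which share a table. Within VCaP, r with TMPRSS2 was 0.35 for PACS1, -0.54 for CTNND1 and -0.61 for ACACA over 6 libraries. With SLC45A3 it was 0.04 for ANKH, 0.98 for PMEPA1 and 0.85 for FKBP5, and with NDRG1 it was 0.75 for SAT1, 0.55 for FAM105A and -0.40 for TSC22D1.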

How the data were processed

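RNA-seq of 22 libraries in 14 groups from 3 prostate cancer cell lines was used. The authors deposited 4 tables of raw read counts per gene (57773 genes each). Per the submitters' processing notes, FastQC 0.11.9, STAR 2.7.2 and featureCounts 1.6.4 were used with hg19; the strand setting, annotation release and treatment of multi-mapping reads are not given in the sources used here. Per the labels' protocols, the VCaP and first C4-2 libraries were made with a stranded mRNA kit and the others with a stranded total RNA kit. In 29 rows the symbol had been turned into a date, and tables were joined on Ensembl ID.

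The tables have 30 columns. Columns that shared a library name and differed by no more than counting error (chi-square ratio under 1.5) were summed as lanes of 1 library. No label says that the remaining replicates were separate cultures, so p-values measure the spread between these samples, which may be technical. Depth is given in the report; intervals and limits for 0 counts (3 counts) cover counting error only.

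Genes were filtered with edgeR 4.0.16 (filterByExpr by group, minimum count 10), scaled by TMM and tested with the quasi-likelihood F test in R 4.3.3, with Benjamini-Hochberg adjustment over all genes and a threshold of 0.05. SE is the log2 fold change over the square root of F, and 95% intervals use the fit's degrees of freedom. Each count table was fitted on its own with all its groups; the DHT experiment, with 1 library per group, was fitted additively (DHT and doxycycline level). The difference between the C4-2 experiments came from a joint fit of their 14 libraries. Pairs of single libraries were compared as scaled ratios with exact 95% intervals for genes with 100 or more counts, beside a 2-fold limit. Levels per kilobase use exon lengths of GENCODE 29, and these and the test of the ERG to TMPRSS2 ratio were added after the data were seen. Promoters come from RefSeq (GRCh38.p14).

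The members and gene lists were chosen with earlier results of these data known. All 8 members are named, and for each list the called genes, up to 2 in each direction by p, with the more abundant ETS genes and, for members present in every table, the 3 genes of highest correlation; further genes named were chosen after their values were seen. Some genes of these lists are not reported here. Alternatives were RLE factors, library size alone, no filter, DESeq2 1.42.0, a replicate block, fits of 2 groups and leaving out each library. Same-numbered replicates did not deviate together in VCaP (r = 0.01 to 0.02). In the first C4-2 experiment r was 0.09 to 0.14 among the groups other than GSK2879552 alone. Between that group and the others it was -0.33 to -0.20. No label says that replicate numbers pair samples, so no pairing was used. The fit was tested on simulated counts.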

Additional observations from a re-analysis of the deposited data

Results flagged for a closer look

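SLC45A3 answered 3 days of doxycycline differently in the C4-2 experiments: its log2 fold change in the first exceeded that in the DHT experiment by 0.72 (0.7174), which passed edgeR's test of the difference, while kit and serum also differ between them. The value of the DHT experiment averages vehicle and DHT libraries, and the first experiment had no DHT. NDRG1 moved in opposite directions with RB1 siRNA in VCaP and with doxycycline in C4-2. The log2 ratio of mean CPM was 0.1976 in VCaP with siRB and -0.2417 in C4-2 with doxycycline and DMSO. Every library of each treated group lay on its side of every control. This difference was not tested, and line, agent, time and labelled serum differ. In C4-2, RB1 loss and exposure to doxycycline cannot be told apart. The C4-2 call with DMSO was lost without 3 of its 4 libraries, and with GSK2879552 doxycycline gave 0.03 ± 0.06 for NDRG1, with overlapping groups. With GSK2879552 against vehicle or DMSO, the log2 ratio of mean CPM in LNCaP (1 library per group) and in C4-2 without doxycycline was -0.4552 and 0.1201 for TMPRSS2, -0.5684 and 0.2095 for SLC45A3, and -0.5438 and 0.09477 for NDRG1. All libraries of each line lay on the same side for these 3 genes, the difference was not tested, and the doses (1 µM in LNCaP, 10 µM in C4-2), times (2 days and 24 h) and kits differ.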

How the results depend on the processing

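No called fold change and no ratio of a member changed sign under the settings tried. Fold changes that were not called did so for NDRG1 (doxycycline with GSK2879552), SLC45A3 (30 days), ETV5 (3 days) and the doxycycline by GSK2879552 differences of TMPRSS2 and SLC45A3, without 1 library or, for SLC45A3 at 30 days, also on library size alone. In counts, the balance of called genes with DHT turned on library size alone, as did that of the ETS family and protein turnover lists. Of single genes, with all libraries kept, 269 values stayed on their side of the threshold, 5 lost and 2 gained a call; the changes are named in the report, except that SLC45A3 at 3 days in the DHT experiment passed with no filter (adjusted p = 0.00951). Counts of called genes moved as follows, and the causes were not tested. DESeq2 called 341 in place of 790 genes in VCaP, 5323 in place of 8149 with DHT, 30 in place of 81 at 3 days (1 member in place of 2), 161 in place of 697 at 30 days and, without doxycycline, 0 members in place of 1 with GSK2879552. With no filter on low counts, 330 in place of 125 genes were called for GSK2879552 without and 406 in place of 246 with doxycycline, 39 in place of 3 for the difference of these effects, 222 at 3 days, and 1 member (TMPRSS2, adjusted p = 0.0424) in place of 0 at 30 days. On library size alone 37 genes and 0 members were called at 3 days, and RLE factors gave 1 member there. The share of calls that were higher was 51.6% with DHT and 26.6% on library size alone, and 62.3% and 75.0% at 30 days. A fit of the 2 groups alone called 3540 in place of 1444 genes for doxycycline with DMSO, 470 in place of 1422 and 1 member with GSK2879552, and 1173 for GSK2879552 with doxycycline.

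Blocking on the replicate number, which no label says pairs the samples, called 908 genes for doxycycline with DMSO, 907 with GSK2879552, and 161 and 86 for GSK2879552 with and without doxycycline. Leaving out 1 library gave 516 to 826 called genes in VCaP (3 members), 279 to 3200 for doxycycline with DMSO (1 to 3 members), 316 to 3201 with GSK2879552 (1 to 2), 41 to 1735 for GSK2879552 without doxycycline (0 to 2), 78 to 947 with it (1 to 2), 0 to 195 for the difference (0), 6673 to 7595 for DHT (3), 19 to 1002 at 3 days (0 to 3), 207 to 1965 at 30 days (0 to 3) and 80 to 601 for the difference between experiments (1). At 30 days TMPRSS2, NDRG1 and SLC45A3 all passed without the library with neither agent; SLC45A3 also passed at 3 days without that library or the one with DHT after 30 days of doxycycline, and for GSK2879552 without doxycycline when the first inhibitor library was left out. On library size alone the DHT ratios at 0, 3 and 30 days were 4.16, 3.98 and 3.55 for TMPRSS2, 7.61, 6.24 and 5.80 for SLC45A3, and 3.88 and 3.80 (0 and 3 days) for NDRG1. Depth limits ETV1, ETV4, ETV5, ERG and FLI1 where they had few counts.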
